A study of Mus musculus with 24 samples.

Results

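The MHC class II genes were followed through the stromal cells of mouse gonadal fat. The set was defined by name as H2-Aa, H2-Ab1, H2-Eb1, H2-DMa, H2-DMb1, H2-Oa, H2-Ob, Cd74 and Ciita. Each gene was read from a probe row that names it and no other gene, and 8 of the 9 had such a row, out of 22180 genes with one in all. The only row that names Cd74, which encodes the invariant chain, names a second gene as well, so no value is given for it. All 8 measured genes had 1 such row each and all 8 were among the 15496 genes tested.

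Male C57Bl/6 mice, with no other allele or agent given in the labels and no age stated, were fed a normal diet (ND), a high-fat diet with 60% fat (HFD), or the HFD for 12 weeks and then no HFD for 8 weeks (weight loss, WL). Sorting gave macrophages (ATM) that carried or lacked CD11c, the integrin whose gene is Itgax, as well as dendritic cells of the fat (ATDC) and precursors of fat cells, the preadipocytes (PA). Each of the 24 samples was measured on 1 array. CD11c- ATM came from ND (2 arrays), HFD (3) and WL mice (2), CD11c+ ATM from HFD (3) and WL mice (3), ATDC from ND (2) and HFD mice (3), and PA from ND (3) and HFD mice (3). The ND macrophage and dendritic cell samples were 2 pools from 4 mice, the HFD samples and all PA were pools of 3 to 4 mice, and for the WL samples no source used here states the pooling. No CD11c+ ATM were purified from ND mice, where such cells were scarce, and no sort marker other than CD11c is named.

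The arrays held the markers of their labels. A list of dendritic cell genes, 12 of 13 measured, had a median level of 7.97 to 8.67 on the ATDC arrays and of 3.99 to 4.73 on the ATM arrays, with all 12 above the array median on every ATDC array. A list of macrophage genes, 12 of 13 measured, lay at 9.67 to 10.80 on the ATM arrays but also at 7.81 to 9.46 on the ATDC arrays. A list of preadipocyte and fibroblast genes, all 12 measured, lay at 10.28 to 11.01 on the PA arrays. That list was not confined to them, reaching 7.81 to 9.81 on HFD CD11c- ATM and 8.59 to 9.11 on WL CD11c- ATM against 4.67 to 5.22 on ND CD11c- ATM. Itgax lay at 2.89 ± 0.17 (SD, n = 2) in ND CD11c- ATM, at 6.13 ± 1.09 (n = 3) in HFD CD11c- ATM and at 8.53 ± 0.72 (n = 3) in HFD CD11c+ ATM. Arrays ND PA 1, HFD CD11c- ATM 3 and HFD ATDC 1 stood apart from the others of their groups, and results that change without them are given both ways.

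MHC class II molecules present peptides from endosomes to CD4+ T cells and are made mainly by dendritic cells, macrophages and B cells. H2-Aa and H2-Ab1 encode the alpha and beta chains of the classical molecule I-A, and H2-Eb1 encodes the beta chain of I-E, whose alpha chain is not made in C57Bl/6 mice. In the endosome the DM molecule (H2-DMa with a DM beta chain) exchanges the invariant chain's remnant for peptides, and the DO molecule (H2-Oa with H2-Ob) holds DM in check and is known chiefly from B cells, thymic epithelium and some dendritic cells. Ciita, the class II transactivator, binds no DNA itself and is recruited by factors bound to the X and Y boxes of class II promoters. In obese fat, class II on macrophages and other cells has been studied for its part in T cell activation.

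Of the 8 measured genes, 7 lie close together in the MHC. In GRCm38.p6, H2-Oa lies at chr17:34092379-34095234, H2-DMa at chr17:34119693-34139101, H2-DMb1 at chr17:34153191-34160229, H2-Ob at chr17:34238905-34245908, H2-Ab1 at chr17:34263227-34269418, H2-Aa at chr17:34282744-34287823 and H2-Eb1 at chr17:34305867-34316674. Ciita lies apart from them, at chr16:10480014-10531064.

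The X and Y boxes are shown because they are the shared promoter element through which Ciita acts, and the genes that carry it did not all move together. RefSeq promoter windows (GRCm38.p6, 250 bases before the start to 50 after) were at hand for 6 of the 8 genes. The X box was searched as GNAAC and the Y box as TGATTGG, on the gene's strand with the starts of the boxes 20 to 40 bases apart, letters and distances that were chosen after these promoters had been read. In 5 of the 6 the order X then Y was found. It was not found in the windows at hand for H2-DMa, chr17:34122582-34122881 and chr17:34125268-34125567. Both lie inside the gene's span given above, and its outer start was not searched. The search therefore cannot show that H2-DMa lacks the boxes. Each stretch is upstream of its gene's start, 5′ to 3′ on the gene's strand, with the X and Y letters in capitals. They span chr17:34287852-34287919 (minus strand) for H2-Aa, chr17:34305761-34305827 (plus) for H2-Eb1, chr17:34153082-34153149 (plus) for H2-DMb1, chr17:34092288-34092355 (plus) for H2-Oa and chr17:34238803-34238867 (plus) for H2-Ob.
H2-Aa: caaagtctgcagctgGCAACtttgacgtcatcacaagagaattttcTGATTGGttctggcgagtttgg
H2-Eb1: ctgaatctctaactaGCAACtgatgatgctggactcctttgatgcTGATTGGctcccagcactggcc
H2-DMb1: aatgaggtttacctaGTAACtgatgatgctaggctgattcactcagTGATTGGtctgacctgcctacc
H2-Oa: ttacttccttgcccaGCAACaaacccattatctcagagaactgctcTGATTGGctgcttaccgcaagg
H2-Ob: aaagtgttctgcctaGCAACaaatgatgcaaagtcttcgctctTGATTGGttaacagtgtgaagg

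In these promoters the starts of the boxes were 28 (H2-Ob), 30 (H2-Eb1) and 31 bases (H2-Aa, H2-DMb1, H2-Oa) apart. Over all 32851 promoter windows, the Y letters stood on either strand in 7.23%, the X letters in 79.6%, and the X then Y order at this distance in 0.484%, or 159 windows. The match is a description of these letters and says nothing of binding in these cells. H2-Aa and H2-Eb1 of the classical chains and both DO chains carry this arrangement, and no window was at hand for H2-Ab1 or Ciita.

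All values below are normalized log2 expression, and every difference is on the log2 scale, so that 1 unit is a doubling of the signal. Group values are means ± SD. Differences are given ± SE from 1 limma fit of all 24 arrays, with p-values adjusted by the Benjamini-Hochberg method over the 15496 genes and a threshold of 0.05. Levels of different genes come from different probes and are not compared with each other. In sorted bulk samples, fewer cells that express a gene and less RNA per cell cannot be told apart. Several comparisons share the same control arrays, CD11c- ATM above all, so they are not independent of each other.

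**Figure D1:**
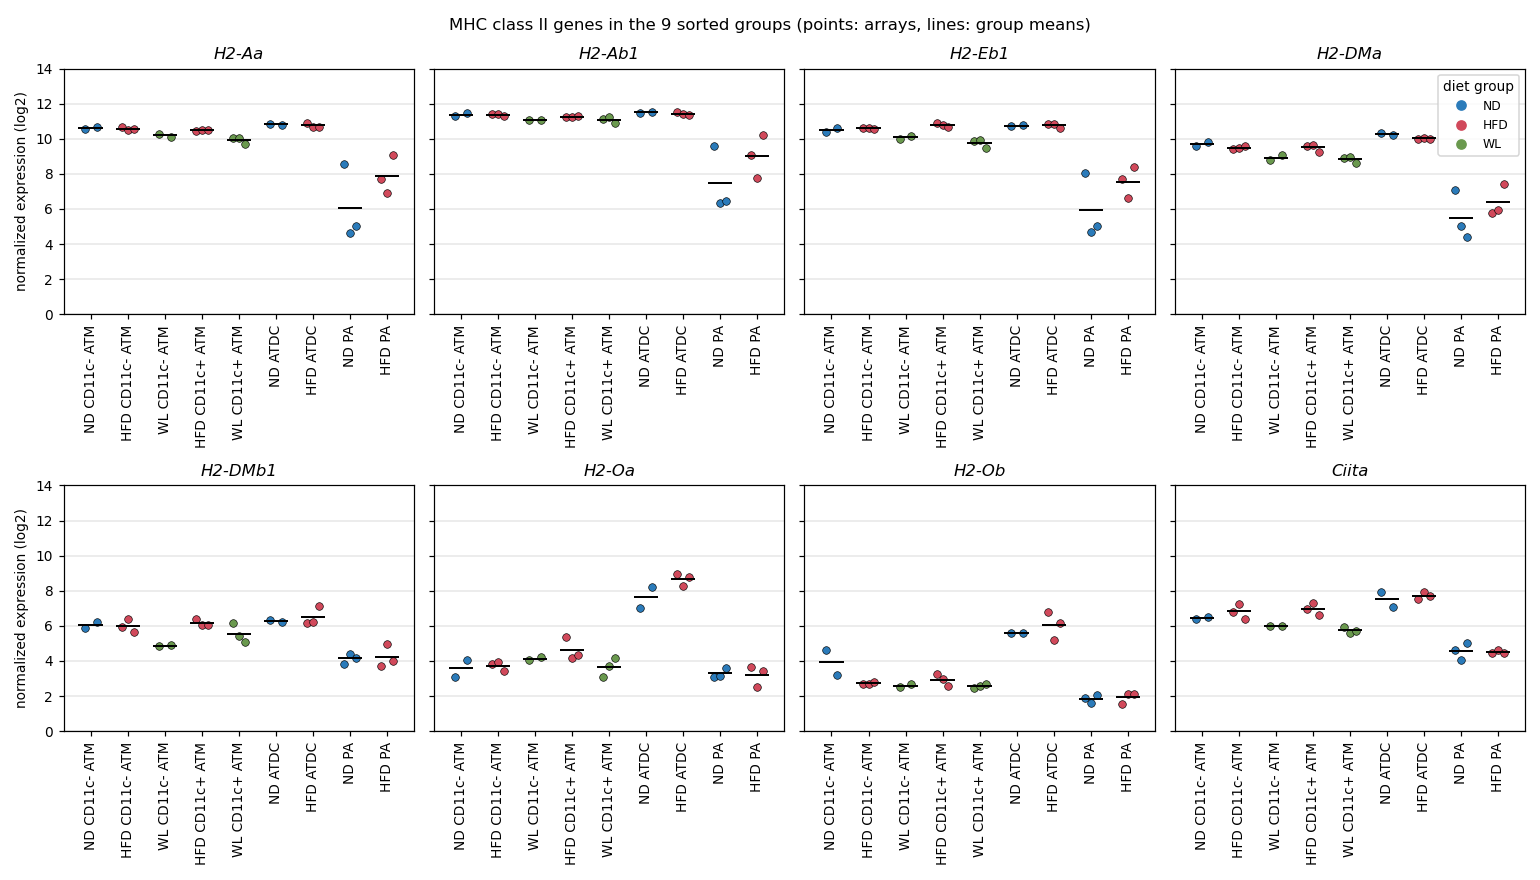
Normalized log2 expression of the 8 measured class II genes (1 panel each) in the 9 groups, with 1 point per array, coloured by diet, and a line at the group mean. H2-Aa, H2-Ab1, H2-Eb1 and H2-DMa are high in every macrophage and dendritic cell group and scattered in PA, while H2-Oa and H2-Ob stand high in the ATDC groups.

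The genes of the classical chains varied least over the macrophage and dendritic cell samples, and the DO chains most. H2-Ab1 ranged from 10.88 to 11.53 over those 18 arrays, a span of 0.65. H2-Aa spanned 1.19 and H2-Eb1 1.40 over the same arrays. The DM chain genes spanned more, 1.71 for H2-DMa and 2.30 for H2-DMb1, and Ciita spanned 2.31. The DO chains spanned most, 4.28 for H2-Ob and 5.92 for H2-Oa. These spans come from different probes at different levels. H2-Ab1 lay between the 99.55 and 99.86 percentile of all probe rows on the 18 arrays. Whether spans are narrowed at such high signal was not tested. The order of the groups for H2-Ab1 ran from ND ATDC (11.50 ± 0.03) through HFD ATDC (11.43 ± 0.09), ND CD11c- ATM (11.38 ± 0.12), HFD CD11c- ATM (11.36 ± 0.08) and HFD CD11c+ ATM (11.26 ± 0.05) to WL CD11c+ ATM (11.07 ± 0.17) and WL CD11c- ATM (11.06 ± 0.02), then HFD PA (9.01 ± 1.21) and ND PA (7.47 ± 1.86). Neighbours in that order overlapped except at the step from HFD CD11c+ ATM to WL CD11c+ ATM and at the step from WL CD11c- ATM to HFD PA.

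Obesity was not seen to move the classical chains in macrophages or dendritic cells. In CD11c- ATM, H2-Ab1 was 11.30 and 11.46 on the ND arrays and 11.41, 11.40 and 11.27 on the HFD arrays. The groups overlapped, with a difference of -0.02 ± 0.67 (95% interval -1.43 to 1.39). That wide interval takes in the PA arrays, whose spread is shared by the fit. In a fit of the 18 arrays without PA, an alternative added after seeing the data, the same difference was -0.02 ± 0.19, with an interval of -0.42 to 0.38. For H2-Aa the interval of that fit was -0.43 to 0.39 and for H2-Eb1 -0.35 to 0.52, so a doubling of the signal of these sorted samples lies outside all of them. The preadipocyte and fibroblast list lay at 7.81 to 9.81 on the HFD CD11c- arrays and at 4.67 to 5.22 on the ND CD11c- arrays. Its part was not tested. None of the 8 genes passed the threshold in HFD against ND CD11c- ATM, where 0.613% of all tested genes did.

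The DO chain H2-Ob and the regulator Ciita did not pass in that comparison either. H2-Ob, the beta chain of the inhibitor DO, was 4.65 and 3.20 on the ND arrays and 2.67, 2.70 and 2.77 on the HFD arrays. The groups did not overlap, as was so for 13.0% of all tested genes in that direction, and the difference of -1.21 ± 0.39 did not pass (adjusted p = 0.232). All HFD arrays were below their medians for this gene, and with those arrays set at their medians the difference of the means is at least 0.85 in size. Ciita was 6.40 and 6.50 on the ND arrays and 6.79, 7.27 and 6.39 on the HFD arrays, a difference of 0.37 ± 0.31 that did not pass and with overlapping groups.

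In ATDC, H2-Ab1 was 11.48 and 11.53 on the ND arrays and 11.53, 11.39 and 11.37 on the HFD arrays, and the groups overlapped. None of the 8 genes passed in HFD against ND ATDC, against 0.258% of all tested genes. H2-Oa, the DO alpha chain, was 7.04 and 8.20 on the ND arrays and 8.98, 8.25 and 8.79 on the HFD arrays. The groups were separate but by little, and the difference of 1.05 ± 0.44 did not pass (adjusted p = 0.469). The diet difference in ATDC minus that in CD11c- ATM passed for none of the 8 genes and for 0.0581% of all tested genes.

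CD11c is the marker by which macrophages of obese fat are often divided, and no class II gene passed between CD11c+ and CD11c- ATM. In HFD mice H2-Ab1 was 11.22, 11.26 and 11.32 on the CD11c+ arrays, which overlapped the CD11c- arrays (11.27 to 11.41). H2-Eb1 was 10.87, 10.79 and 10.65 against 10.63, 10.62 and 10.55, higher on every CD11c+ array but by 0.17 ± 0.56, which did not pass. H2-Oa was 5.34, 4.19 and 4.35 against 3.80, 3.95 and 3.40, the largest of the 8 differences at 0.91 ± 0.39 (adjusted p = 0.732, limma). These 2 genes were higher on every CD11c+ array, as was so for 11.1% of all tested genes. None of the 8 genes passed, against 0.00645% of all tested genes, or 1 gene, so the comparison as a whole called almost nothing. In the fit without PA the 95% interval of CD11c+ minus CD11c- was -0.45 to 0.26 for H2-Ab1 and -0.44 to 0.71 for Ciita. In WL mice none of the 8 passed either, against 1.34% of all tested genes, and H2-Ab1 differed by 0.01 ± 0.67. There H2-DMb1 was higher on every CD11c+ array (0.68 ± 0.37), as were 12.5% of all tested genes. H2-Aa (-0.25 ± 0.73), H2-Eb1 (-0.33 ± 0.63) and Ciita (-0.24 ± 0.31) were lower on every CD11c+ array, as were 11.8%.

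After weight loss the class II genes lay lower in CD11c+ ATM, and of these Ciita passed the test. Ciita was 6.94, 7.29 and 6.63 on the HFD CD11c+ arrays and 5.95, 5.62 and 5.73 on the WL CD11c+ arrays. Every WL array lay below every HFD array, and Ciita fell by 1.19 ± 0.27, a fold of 2.28 (adjusted p = 0.0378, limma). It was the 1 gene of the 8 to pass, while over all tested genes 1.33% passed in either direction and 0.697% as lower. This call was fragile. It was lost in 5 of the 6 fits that leave out 1 of these arrays (adjusted p 0.0593 to 0.156; 0.0391 without WL CD11c+ ATM 3), in the fit of these groups alone, and in the fit without PA (adjusted p = 0.0661).

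The classical chains in the same cells had values that ran the same way. H2-Eb1 was 10.87, 10.79 and 10.65 on the HFD arrays and 9.86, 9.95 and 9.47 on the WL arrays, with no overlap. Its difference of -1.01 ± 0.56 did not pass in the fit of all 24 arrays (adjusted p = 0.318), and passed in the fit of 18 arrays without PA, at -1.01 ± 0.18 (adjusted p = 0.0324), where 0.445% of all tested genes passed. There it kept its call in 1 of the 6 fits that leave out 1 of these arrays (highest adjusted p 0.119). H2-Aa was 10.47, 10.52 and 10.52 against 10.05, 10.06 and 9.72, a difference of -0.56 ± 0.66 that did not pass. H2-Ab1, at 11.22, 11.26 and 11.32 against 11.12, 11.22 and 10.88, differed by -0.19 ± 0.60, its ranges just apart.

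The DM alpha chain gene H2-DMa was 9.59, 9.66 and 9.27 on the HFD CD11c+ arrays and 8.91, 8.96 and 8.63 on the WL CD11c+ arrays, without overlap, a difference of -0.67 ± 0.48 that did not pass. All 8 differences were below 0, with a median of -0.63 beside -0.10 over all tested genes. For 6 of the 8 no WL array reached an HFD array, as was so for 17.3% of all tested genes in that direction. Levels of other cell types' genes moved with this comparison. The preadipocyte and fibroblast list lay at 7.30 to 8.53 on the WL CD11c+ arrays and at 6.35 to 7.39 on the HFD CD11c+ arrays, and the macrophage list at 9.67 to 10.18 and 10.15 to 10.37. At most 1 of the 12 genes of the first list and 0 of the 12 of the second were below the array median on any of these arrays. Their part in the result was not tested.

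In CD11c- ATM the same comparison gave no call. Ciita was 6.01 and 5.99 on the WL arrays, below all HFD CD11c- arrays (6.79, 7.27 and 6.39), a difference of -0.82 ± 0.31 (adjusted p = 0.156). H2-DMb1 was 4.84 and 4.91 against 5.94, 6.38 and 5.64, a difference of -1.11 ± 0.37 (adjusted p = 0.115). Of the 8 differences 7 were below 0, none passed, and 2.96% of all tested genes did. The median of the 8 was -0.45, beside -0.09 over all tested genes. For 6 of the 8 no WL array reached an HFD array, as was so for 21.2% of all tested genes in that direction. The change of Ciita with weight loss in CD11c+ ATM minus that in CD11c- ATM was -0.37 ± 0.41 (adjusted p = 0.913), and none of the 8 genes passed that test, which 0.161% of all tested genes passed.

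No class II gene of CD11c- ATM passed between WL and lean mice. Of all tested genes 6.18% passed in that comparison. For 7 of the 8 both WL arrays lay below both ND arrays, as was so for 28.2% of all tested genes with 2 arrays a group. H2-Ob was 4.65 and 3.20 on the ND arrays and 2.52 and 2.67 on the WL arrays, a fitted difference of -1.33 ± 0.43 that did not pass (adjusted p = 0.0731). Both WL arrays were below their medians, and with them set at their medians the difference of the means is at least 0.80 in size. Without ND CD11c- ATM 2, the lower ND array, the gene passed (adjusted p = 0.0228). On the WL CD11c- arrays the preadipocyte and fibroblast list lay at 8.59 to 9.11, against 4.67 to 5.22 on the ND CD11c- arrays, and its part was not tested.

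**Figure D2:**
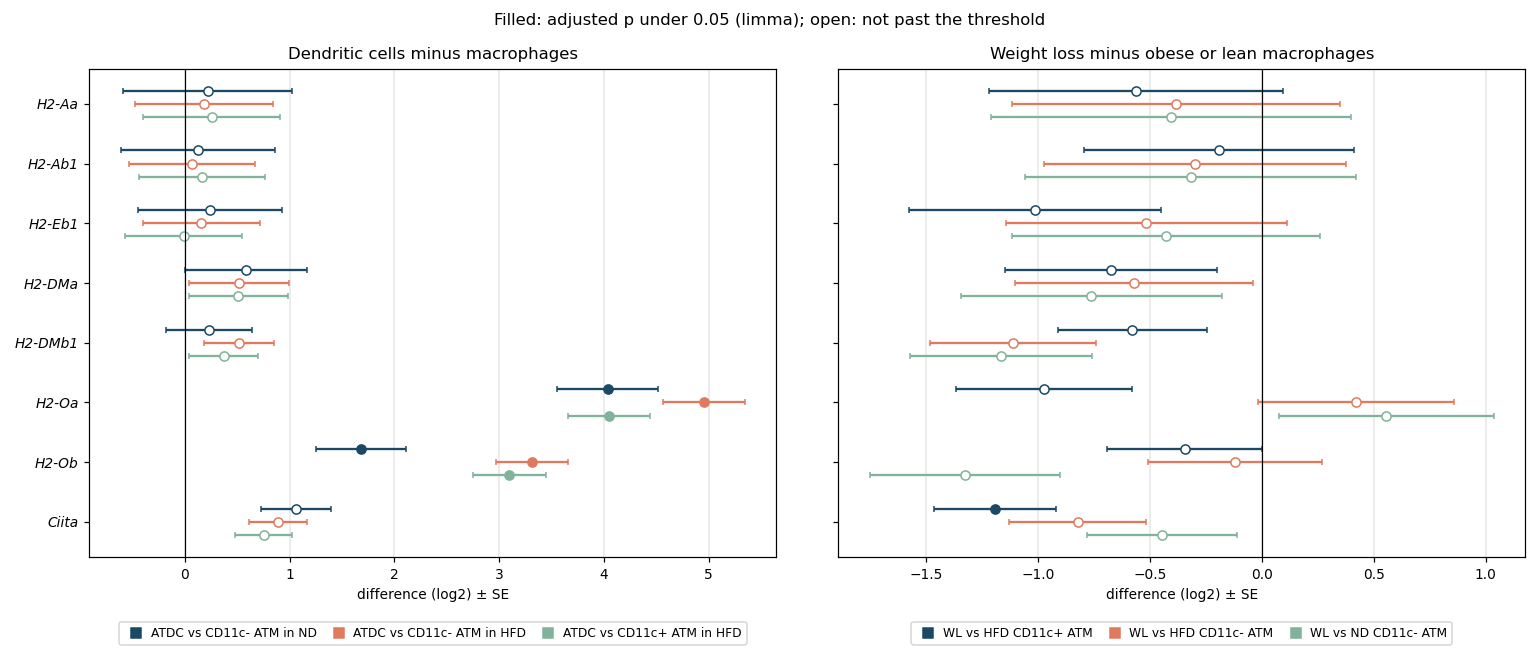
Log2 differences ± SE from limma for the 8 genes, ATDC minus ATM on the left and WL minus HFD or ND macrophages on the right, with filled points for adjusted p under 0.05. H2-Oa and H2-Ob are the filled points on the left, at 1.68 to 4.96, and Ciita in CD11c+ ATM (-1.19) is the filled point on the right.

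Between dendritic cells and macrophages the DO chains passed and the classical chains did not. H2-Oa was 7.04 and 8.20 on the ND ATDC arrays and 3.09 and 4.07 on the ND CD11c- ATM arrays. It was higher by 4.04 ± 0.48, a fold of 16.4 (adjusted p = 1.49e-05). For H2-Oa the ND CD11c- ATM arrays lay between the 49.1 and 63.4 percentile of all probe rows, with replicate 1 below its array median. The HFD CD11c- ATM arrays lay between 54.9 and 62.0, so folds against these groups start from low signals. In HFD mice H2-Oa was 8.98, 8.25 and 8.79 in ATDC, 3.80, 3.95 and 3.40 in CD11c- ATM and 5.34, 4.19 and 4.35 in CD11c+ ATM. The lowest of these ATDC arrays, at 8.25, lay above the highest macrophage array, at 5.34. H2-Oa was higher in HFD ATDC by 4.96 ± 0.39 than in CD11c- ATM, a fold of 31.0 (adjusted p = 1.76e-07), and by 4.05 ± 0.39 than in CD11c+ ATM (adjusted p = 3.32e-06). These calls held in every fit that left out 1 array of the groups compared.

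H2-Ob, the partner chain, was 5.61 and 5.60 on the ND ATDC arrays and 6.76, 5.17 and 6.16 on the HFD ATDC arrays. On the HFD CD11c- ATM arrays it was 2.67, 2.70 and 2.77, below the array median on each. The groups were far apart, and it was higher in HFD ATDC by 3.31 ± 0.35 (adjusted p = 4.59e-06), or by at least 2.95 when the macrophage arrays are set at their medians. Against HFD CD11c+ ATM (3.26, 2.94 and 2.59) it was higher by 3.10 ± 0.35 (adjusted p = 1.51e-05), with 2.94 and 2.59 below their array medians. In ND mice the CD11c- ATM arrays were at 4.65 and 3.20, and the difference of 1.68 ± 0.43 passed (adjusted p = 0.0159). Of the 4 fits that leave out 1 array there, 3 lost this call, and without ND CD11c- ATM 2 the difference was 0.95 (adjusted p = 0.301).

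The DO chains were the only 2 of the 8 genes to pass in each of the 3 comparisons. Of all tested genes 3.67% rose in ND ATDC against CD11c- ATM, 2.54% rose in HFD ATDC against CD11c- ATM and 1.72% rose against CD11c+ ATM (8.27%, 6.20% and 4.16% in either direction). The median difference over the 8 genes was 0.41, 0.52 and 0.44, beside -0.01, -0.02 and -0.05 over all tested genes. Over the 9 groups H2-Oa ran from HFD ATDC (8.67 ± 0.38) and ND ATDC (7.62 ± 0.82) down to HFD CD11c+ ATM (4.63 ± 0.62), with the other macrophage groups at 3.58 to 4.14 and PA at 3.20 and 3.29. Below the ATDC the levels of neighbouring groups overlapped except for WL CD11c- ATM (4.14 ± 0.12) over HFD CD11c- ATM (3.72 ± 0.29).

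Markers of B cells, plasmacytoid dendritic cells and T cells were set beside this. The B cell list, 9 of 10 genes measured, lay at 3.14 to 4.43 on the ATDC arrays, at 3.34 to 4.41 on HFD CD11c- ATM and at 3.22 to 4.54 on HFD CD11c+ ATM. Of all groups it was highest on WL CD11c- ATM, at 4.88 to 5.19. Ms4a1, which encodes the B cell protein CD20, was 2.41 ± 0.32 in HFD ATDC and 2.37 ± 0.71 in HFD CD11c- ATM. In ND mice Ms4a1 was 3.75 ± 0.42 in ATDC and 3.04 ± 0.12 in CD11c- ATM, and the B cell list 4.00 to 4.43 and 3.49 to 3.96. The B cell genes were split. In ND mice Bank1 (7.30 ± 0.15 against 8.89 ± 0.15) and Ebf1 had lower means in ATDC than in CD11c- ATM, and the other measured genes higher ones. In HFD mice Ms4a1, Pax5 and Fcmr had higher means in ATDC than in CD11c- ATM. The others had lower means there, with Bank1 at 5.42 ± 1.03 against 7.16 ± 0.02. A list of plasmacytoid dendritic cell genes, all 7 measured, lay at 3.73 to 5.60 on the ATDC arrays, at 2.51 to 3.78 on the ND and HFD CD11c- ATM arrays and at 2.64 to 2.99 on HFD CD11c+ ATM, with 1 to 3 of its genes below the array median on the ATDC arrays. Its genes did not all go this way. In ND mice Siglech and Tcf4 were 8.32 ± 0.22 and 8.23 ± 0.16 in CD11c- ATM, against 5.19 ± 1.11 and 6.49 ± 0.67 in ATDC. Ccr9, Pacsin1 and Klk1 had higher means in ND ATDC. The T cell list, 8 of 9 measured, lay at 4.52 to 6.14 on the ATDC arrays and at 3.41 to 4.76 on the ND and HFD ATM arrays. The part of B cells, plasmacytoid dendritic cells and T cells in the DO values was not tested.

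No classical chain passed between ATDC and ATM, but several were higher in ATDC by little on every array. In ND mice H2-Aa was 10.85 and 10.78 in ATDC and 10.55 and 10.65 in CD11c- ATM, a difference of 0.22 ± 0.80. H2-Eb1 was 10.73 and 10.78 against 10.41 and 10.62 (0.24 ± 0.69), and H2-Ab1 11.48 and 11.53 against 11.30 and 11.46 (0.12 ± 0.74). All 8 genes were higher on both ND ATDC arrays than on both CD11c- ATM arrays, as was so for 24% of all tested genes. In HFD mice 5 of the 8 were higher on every ATDC array than on any CD11c- ATM array, beside 10.5% of all tested genes, and 6 than on any CD11c+ ATM array, beside 10.2%. There H2-Aa differed by 0.18 ± 0.66 (CD11c-) and 0.25 ± 0.66 (CD11c+), H2-Eb1 by 0.16 ± 0.56 and -0.01 ± 0.56, and H2-Ab1 by 0.07 ± 0.60 and 0.16 ± 0.60. In the fit without PA the 95% intervals for H2-Ab1 were -0.31 to 0.56 in ND, -0.29 to 0.43 and -0.19 to 0.52, and for H2-Aa -0.24 to 0.67, -0.19 to 0.55 and -0.11 to 0.62, so a doubling lies outside all 6. Ciita lay between these and the DO chains. It was 7.93 and 7.08 on the ND ATDC arrays and 7.51, 7.91 and 7.71 on the HFD ATDC arrays, above every CD11c- ATM array of the same diet and above the CD11c+ arrays. The differences of 1.06 ± 0.34 (ND), 0.89 ± 0.27 (HFD, CD11c-) and 0.75 ± 0.27 (HFD, CD11c+) did not pass (adjusted p = 0.0576, 0.0615 and 0.151).

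The DM beta chain is encoded in the mouse by a pair of near-identical genes, and their rows differed. H2-DMb1 was 6.34 and 6.20 in ND ATDC and 5.88 and 6.20 in ND CD11c- ATM, and in HFD mice the ATDC and ATM arrays overlapped. Its differences of 0.23, 0.52 and 0.37 in the 3 comparisons did not pass. H2-DMb2, which is not among the 9 genes and was picked after its values were seen, was 9.95 and 9.79 in ND ATDC and 6.34 and 5.26 in ND CD11c- ATM. It was 9.49, 9.22 and 9.29 in HFD ATDC against 6.56, 6.35 and 5.67 in CD11c- ATM and 6.79, 6.52 and 6.57 in CD11c+ ATM. It was higher in ATDC by 4.07 ± 0.72 (adjusted p = 0.00087), 3.14 ± 0.58 (adjusted p = 0.0019) and 2.71 ± 0.58 (adjusted p = 0.00946). How far the probes of the 2 genes tell them apart could not be checked, since probe sequences were not used here. H2-DMa, the alpha chain for both, was 10.33 and 10.21 in ND ATDC against 9.57 and 9.81 in ND CD11c- ATM, apart but not past the threshold.

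Preadipocytes carried less class II RNA than macrophages. H2-Aa was 8.54, 4.64 and 5.01 on the ND PA arrays and 10.55 and 10.65 on the ND CD11c- ATM arrays. It was lower by 4.54 ± 0.73, a fold of 23.2 (adjusted p = 8.11e-05). H2-DMa was 7.09, 5.05 and 4.37 on the ND PA arrays against 9.57 and 9.81, and it fell by 4.19 ± 0.53 (adjusted p = 4.97e-06). In ND, 7 of the 8 genes were lower in PA, beside 10.8% of all tested genes lower and 23.4% in either direction, and H2-Oa was the one that did not pass (-0.29 ± 0.44). In HFD, 6 of the 8 were lower, beside 9.68% lower and 20.7% in either direction, and H2-Oa and H2-Ob did not pass. H2-Ob was below the array median on every PA array, so that its ND difference of -2.07 ± 0.39 is at least 0.88 in size.

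In the classical chains the PA arrays also differed among themselves more than those of any other group. Over the 3 ND arrays H2-Aa had an SD of 2.15 and H2-Ab1 of 1.86, and over the 3 HFD arrays 1.11 and 1.21, against 0.20 or less for both genes in every macrophage and dendritic cell group. On the ND arrays H2-Ab1 was 9.61, 6.34 and 6.46, and on the HFD arrays 9.07, 7.77 and 10.19. ND PA 1 stood with the HFD arrays and the other ND arrays below all of them. Ciita did not follow this, at 4.62, 4.05 and 5.03 on the ND arrays and 4.45, 4.60 and 4.43 on the HFD arrays.

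With all arrays no class II gene passed between HFD and ND PA, while 2.59% of all tested genes did. H2-Aa, at 7.71, 6.88 and 9.08 on the HFD arrays, was higher by 1.83 ± 0.66 (adjusted p = 0.198), H2-Ab1 by 1.54 ± 0.60 (adjusted p = 0.267), H2-Eb1 by 1.62 ± 0.56 (adjusted p = 0.179) and H2-DMa by 0.86 ± 0.48 (adjusted p = 0.543). Without ND PA 1, 4 genes passed. H2-Aa was then higher in HFD by 3.07 ± 0.38 (adjusted p = 0.0001), H2-Ab1 by 2.61 ± 0.41 (adjusted p = 0.0008), H2-Eb1 by 2.68 ± 0.33 (adjusted p = 0.0001) and H2-DMa by 1.66 ± 0.35 (adjusted p = 0.0107). The result therefore rests on 1 array in either direction. The diet difference in PA minus that in CD11c- ATM passed for none of the 8 genes with all arrays, beside 0.277% of all tested genes, and for 3 without ND PA 1 (H2-Aa 3.09 ± 0.54, H2-Ab1 2.63 ± 0.57 and H2-Eb1 2.59 ± 0.47).

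Genes of macrophages moved with these values in part. The macrophage list lay at 5.83, 5.11 and 4.37 on the ND PA arrays and at 7.12, 6.24 and 8.18 on the HFD PA arrays, with at most 1 of its 12 genes below the array median on any of them. The highest value of H2-Aa, H2-Ab1, H2-Eb1 and H2-DMa among the 6 arrays and the highest value of the list were both on HFD PA 3, and in each diet the array highest in H2-Aa was highest in the list. Between the diets ND PA 1 went the other way. Its H2-Aa value of 8.54 lay above HFD PA 1 (7.71) and HFD PA 2 (6.88), but its list level of 5.83 lay below theirs (7.12 and 6.24). The dendritic cell list lay at 4.21, 2.98 and 2.99 on the ND arrays and 3.84, 3.31 and 3.76 on the HFD arrays, with 3 to 7 of its 12 genes below the array median. It was highest on ND PA 1, the ND array high in the classical chains. Itgax was 3.35 ± 0.91 in ND PA and 5.89 ± 1.28 in HFD PA. The part of macrophages and dendritic cells in the PA values was not tested.

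**Figure D3:**
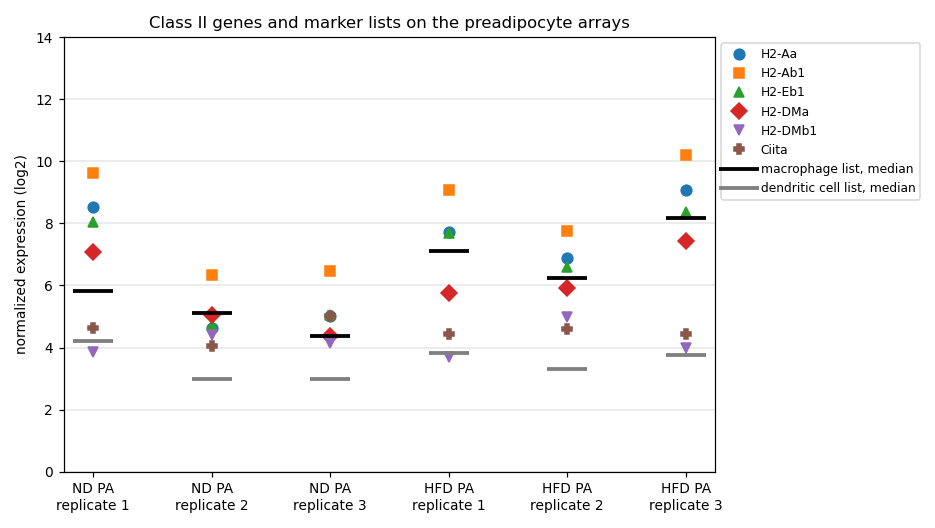
Normalized log2 expression of 6 class II genes (symbols) and the median levels of the macrophage and dendritic cell lists (bars) on the 6 PA arrays. ND PA 1 lies above ND PA 2 and 3 in H2-Aa, H2-Ab1, H2-Eb1 and H2-DMa, HFD PA 3 is highest in these genes and in the macrophage list (8.18), and Ciita stays between 4.05 and 5.03.

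The other genes of class II presentation were read from a list of 19 endosomal and costimulatory genes, all tested. In ND ATDC against CD11c- ATM, 1 rose and 6 fell, beside 8.27% of all tested genes in either direction. The proteases that cut antigen and invariant chain were among those lower in ATDC: Lgmn (legumain) fell by 2.86 ± 0.39 (adjusted p = 7.65e-05), Ctsl (cathepsin L) by 2.07 ± 0.38 (adjusted p = 0.00148) and Ctsb (cathepsin B) by 1.18 ± 0.26 (adjusted p = 0.00573). Cd9, a tetraspanin, was the one that rose, by 2.72 ± 0.53 (adjusted p = 0.0022). In HFD mice 0 rose and 2 fell against CD11c- ATM (10.5% of the list, beside 6.20% of all tested genes), Lgmn (-1.44 ± 0.32) and Lamp2, a lysosomal membrane protein (-0.71 ± 0.16), and 0 rose and 3 fell against CD11c+ ATM (15.8%, beside 4.16%), Lgmn (-1.48 ± 0.32), Ctsl (-1.14 ± 0.31) and Ctsb (-0.80 ± 0.21). The list's median difference was -0.58, -0.25 and -0.26 in the 3 comparisons.

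Diet moved few of these genes in macrophages and dendritic cells. In HFD against ND CD11c- ATM 1 of 19 rose, Cd9 (2.89 ± 0.48, adjusted p = 0.00603), beside 0.613% of all tested genes, and in ATDC 1 rose, Ctsl (1.82 ± 0.35, adjusted p = 0.028), beside 0.258%. In HFD against ND PA 5 rose and 0 fell, beside 2.59% of all tested genes in either direction, among them Lgmn (3.29 ± 0.32, adjusted p = 1.16e-05), Ctss, the cathepsin that trims invariant chain (3.05 ± 0.46, adjusted p = 0.000645), Cd80 (2.12 ± 0.46, adjusted p = 0.0156) and Ctsb (1.08 ± 0.21, adjusted p = 0.00675). These calls were made with all 24 arrays, ND PA 1 included, and the macrophage list lay at 4.37 to 5.83 on the ND PA arrays and at 6.24 to 8.18 on the HFD PA arrays, whose part was not tested. With weight loss Cd86, which encodes a costimulatory ligand, fell in CD11c+ ATM by 1.17 ± 0.27 (adjusted p = 0.0401) as the 1 gene of 19 to pass, beside 1.33% of all tested genes, and none of the 19 passed in CD11c- ATM. In WL against ND CD11c- ATM 3 of 19 passed, beside 6.18% of all tested genes, of which Cd9 rose (2.82 ± 0.53), and Marchf1, a ubiquitin ligase that takes class II off the surface (-1.01 ± 0.29), and Ctsh (-0.89 ± 0.19) fell.

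Of 18 regulators of class II transcription, among them the RFX and NF-Y subunits that bind the X and Y boxes shown above, 17 were tested. None passed with diet, with weight loss or between ATDC and ATM. Rfxap, an RFX subunit, was lower in WL CD11c+ than CD11c- ATM by 1.35 ± 0.33 (adjusted p = 0.0495), 1 of 17 beside 1.34% of all tested genes. In PA against ND CD11c- ATM 1 rose and 5 fell, or 6 of 17 beside 23.4% of all tested genes in either direction, with Irf8 lower by 5.28 ± 0.82, Spi1 (PU.1) by 5.21 ± 0.50, Irf4 by 2.54 ± 0.49 and Ep300 by 1.13 ± 0.24. In HFD 0 rose and 6 fell, beside 20.7% of all tested genes, with Spi1 at -3.36 ± 0.45, Irf8 at -3.33 ± 0.73, Irf4 at -2.63 ± 0.44 and Prdm1 at -1.92 ± 0.47.

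Class I presentation is the route to CD8+ T cells, and 17 of its listed genes were tested. In ND ATDC against CD11c- ATM 1 rose, Tap1 of the peptide transporter (2.32 ± 0.35, adjusted p = 0.000232), a share of 5.88% beside 3.67% of all tested genes higher. In HFD 4 rose against CD11c- ATM (23.5%, beside 2.54% higher of all tested genes), Tap1 (1.44 ± 0.29), Tap2 (1.04 ± 0.26) and the immunoproteasome genes Psmb9 (1.02 ± 0.23) and Psmb8 (0.84 ± 0.21), and 3 against CD11c+ ATM (17.6%, beside 1.72%), Tap1 (1.11 ± 0.29), Psmb9 (0.95 ± 0.23) and Psmb8 (0.78 ± 0.21). None fell in these 3 comparisons, and none of the 17 passed with diet or weight loss. In PA against CD11c- ATM 3 fell in ND (17.6%, beside 10.8% lower of all tested genes), Psmb8, H2-K1 and Psmb9, and in HFD Tapbp rose and Psmb8 fell (11.8%, beside 20.7% in either direction).

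Interferon gamma is the best known inducer of Ciita, and of its signalling genes 15 of 17 were tested. Jak2, the kinase of its receptor, was higher in ATDC by 1.68 ± 0.34 in ND, 1.80 ± 0.28 against HFD CD11c- ATM and 1.62 ± 0.28 against HFD CD11c+ ATM. Socs3, an inhibitor of cytokine signalling, was lower in ATDC than CD11c- ATM by 1.58 ± 0.31 in ND and 1.01 ± 0.26 in HFD. Of the 15 genes 2 passed in ND, 2 against HFD CD11c- ATM and 1 against HFD CD11c+ ATM. The shares over all tested genes were 8.27%, 6.20% and 4.16% in either direction. Socs3 rose with weight loss in CD11c+ ATM (1.48 ± 0.26, adjusted p = 0.00886) and in CD11c- ATM (1.24 ± 0.29, adjusted p = 0.0236). It was the 1 gene of 15 to pass in each, beside 1.33% and 2.96% of all tested genes. In HFD against ND PA the chemokine gene Cxcl9 (2.76 ± 0.73, adjusted p = 0.0489) and the adhesion gene Icam1 (1.79 ± 0.25, adjusted p = 0.000397) rose, 2 of 15 beside 2.59% of all tested genes, on the same arrays on which the macrophage list was higher (6.24 to 8.18 against 4.37 to 5.83), whose part was not tested. No gene of the list passed with diet in CD11c- ATM or ATDC.

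**Figure D4:**
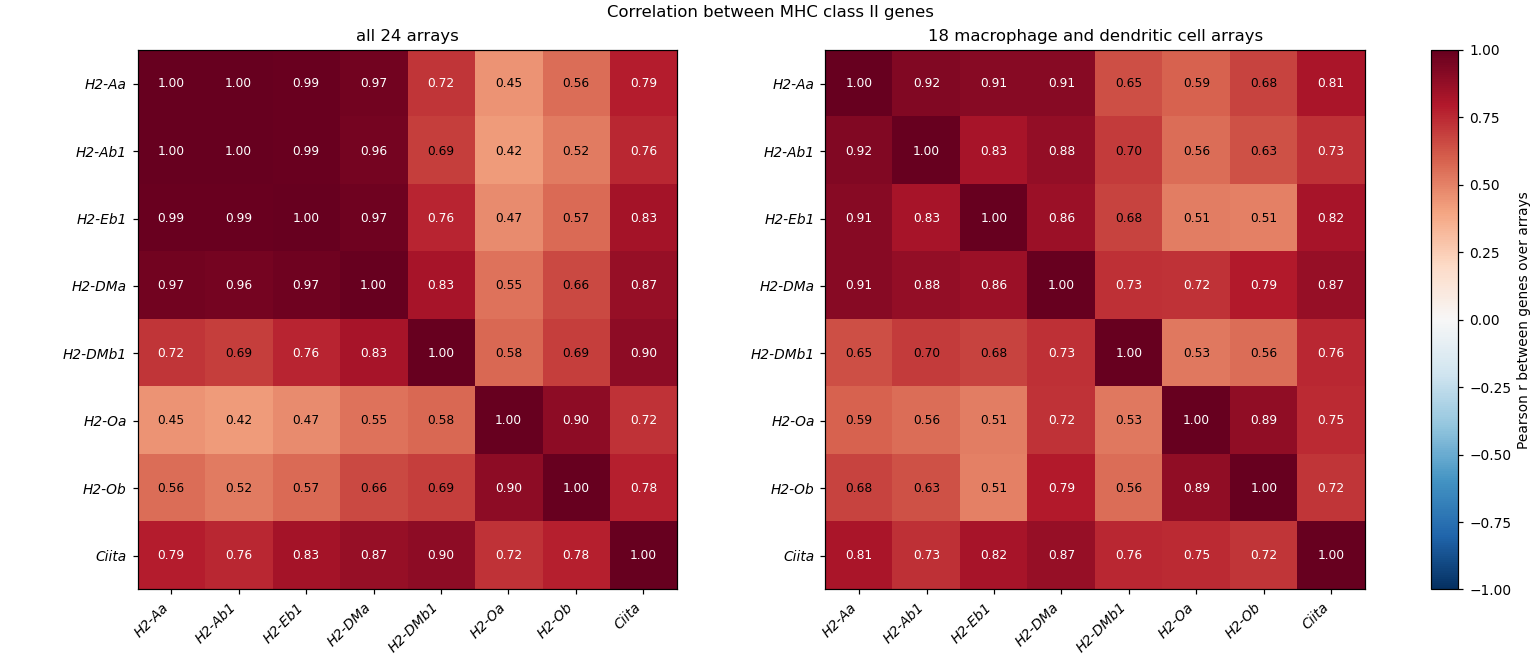
Pearson correlation between the 8 class II genes over all 24 arrays (left) and over the 18 macrophage and dendritic cell arrays (right), with r printed in each cell. Over the 24 arrays H2-Aa, H2-Ab1, H2-Eb1 and H2-DMa form one block and H2-Oa with H2-Ob another. Over the 18 arrays the first block is less distinct, with H2-DMa at 0.875 with Ciita and 0.877 with H2-Ab1.

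The genes fell into blocks by their values over arrays, less distinctly for the classical chains and H2-DMa without PA. These correlations describe arrays that share cell types, so no p-value is given. H2-Aa and H2-Ab1 had r = 0.995 over 24 arrays and 0.923 over the 18 without PA. H2-Oa and H2-Ob had 0.898 and 0.890, while H2-Ab1 and H2-Oa had 0.423 and 0.555. H2-DMb1 was closest to Ciita, at 0.896 and 0.755.

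The tested genes outside the set most like each of 4 members over the 24 arrays were taken as the 5 with the highest r. For H2-Ab1 they were Ptprc, the pan-leukocyte gene CD45 (0.983), Ccl6 (0.983), Arhgdib (0.982), Clec4a3 (0.979) and Rassf4 (0.979), and over the 18 arrays without PA their r was 0.404 to 0.806. For Ciita they were Arhgap4 (0.950), Tifab (0.943), Camk1d (0.940), Hmgb2 (0.939) and Stk4 (0.935), with 0.816 to 0.895 without PA. The DO chains had dendritic cell genes among theirs. For H2-Oa they were Flt3, a growth factor receptor of dendritic cells (0.958), Klri1 (0.953), Parvg (0.948), the migration receptor Ccr7 (0.947) and Fcrla (0.946). For H2-Ob they were Hepacam2 (0.950), Traf1 (0.942), Tlr11 (0.932), Asb2 (0.925) and Flt3 (0.925). Flt3 itself was 8.05 ± 0.03 in ND ATDC and 8.27 ± 0.26 in HFD ATDC, against 3.25 to 4.46 as group means in the ATM.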

How the data were processed

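Biotin-labelled cDNA of 24 sorted samples was measured on single-colour arrays, 1 per sample, per the labels' protocols. The deposited values are normalized log2 expression for 41345 probe rows, ranging from -0.02 to 13.1, made by the authors with RMA; oligo and limma are also named in the submitters' processing notes, none with a version. Whether limma changed the values is not stated. RMA quantile-normalizes the arrays, which takes out any shift common to a whole sample. Scanner files were not used here, so background was not judged probe by probe.

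Groups were taken from the sample titles. Rows with 1 symbol (23521) named 22180 genes, and of several rows the one with the highest mean was kept. The 15496 genes above the array median on at least 2 arrays were tested with limma 3.58.1 in R 4.3.3, in 1 fit with 9 group means and 15 residual degrees of freedom, two-sided, with Benjamini-Hochberg adjustment within each of 13 comparisons and 3 interactions. The code was tested on simulated data. Marker list levels are medians over the list's genes on an array. A least difference sets each array of the dimmer group at its median or its value, whichever is higher.

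The members, gene lists and tests were chosen with earlier results of these data known. From each list and comparison, up to 4 genes past the threshold with the largest non-overlapping differences were named, and the 5 genes with the highest r. The ND and HFD samples are pools, and the pooling of the WL samples is not stated. The p-values measure the spread between samples, and the number of arrays limits the precision. Promoters are from RefSeq.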

Additional observations from a re-analysis of the deposited data

How the results depend on the processing

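Counts of class II genes past the threshold depended on few settings. In HFD against ND PA the count was 0 with all arrays, 3 with array weights, 4 without the 3 arrays that stood apart, and 0 to 4 over the fits that leave out 1 array. The diet difference in PA minus that in CD11c- ATM gave 2 without those 3 arrays and 0 to 3 when 1 array was left out. In WL against HFD CD11c+ ATM the count of 1 became 0 in the fit of these groups alone and 0 to 1 when 1 array was left out. The fit without PA kept the count of 1, but with H2-Eb1 in place of Ciita. In WL against ND CD11c- ATM leaving out 1 array gave 0 to 1. In ND ATDC against CD11c- ATM the count of 2 became 1 in the fit of these groups alone and 1 to 2 when 1 array was left out. Fits without the 3 arrays and without PA were chosen after seeing the data. No other setting moved a count by over 1.5 times. Over the 20 single gene calls followed, 280 of 292 alternatives kept the call, 12 lost it and 0 changed sign. Of these calls 7 and 6 were those of PA against CD11c- ATM in ND and HFD. The losses were uneven, with 7 of 14 alternatives for Ciita in WL against HFD CD11c+ ATM and 4 of 13 for H2-Ob in ND ATDC against CD11c- ATM. H2-Ab1 in HFD PA against CD11c- ATM lost its call without HFD PA 2 (adjusted p = 0.0599).

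Whether replicate numbers pair the samples was not settled. Of 18 same-numbered pairs within HFD, 4 deviated together with r over 0.1 (-0.11 to 0.25). Differently numbered pairs were not set beside them, so this count cannot decide it. With the number as a replicate block, ND ATDC against CD11c- ATM gave 2 genes as before, and with a block per diet it gave 3, the third being Ciita. With 2 or 3 samples a group, and with the spread of PA in the shared fit, differences of the classical chains between macrophage groups of up to 1.01 log2 units (H2-Eb1) did not pass.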
